A study of Mus musculus with 2 samples.

Results

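Barcodes whose RNA was mostly mitochondrial were described in single-cell libraries of sorted mouse lung epithelium. A barcode belonged to them when genes of the mitochondrial genome, whose names start with mt-, held above 50% of its UMIs, the unique molecular identifiers that each count 1 captured RNA molecule. This held for 1748 of 8924 barcodes (19.6%, exact Clopper-Pearson 95% interval 18.8 to 20.4) in the library labelled WT. In the library labelled IPKO it held for 1349 of 10014 barcodes (13.5%, interval 12.8 to 14.2), which made 3097 of 18938 barcodes in all. The mt- share chose these barcodes, so it is given as a description with no test. Just inside the threshold, at 50 to 51%, lay 6 and 6 barcodes, and just outside it, at 49 to 50%, lay 6 and 10. They are called mt-high barcodes below, and in each pair of values the library labelled WT comes first.

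Both libraries came from the lungs of male mice, 1 library per genotype. By their labels, the first came from WT mice and the second from mice lacking IP (IP-/-, IPKO). Alveolar type 2 (AT2) cells were gated by flow cytometry as EpCAM+, CD31-, CD34-, CD45-, CD24- and Sca-1-, and libraries were made with the 10x Chromium Single Cell 3' kit. IP is the usual name of the prostacyclin receptor, encoded by Ptgir in the mouse. The labels used here do not give the number of mice behind a library, so no difference between the libraries has a replicate check. Intervals below are exact, at 95%, and cover counting error only. The Ptgir counts went against the labels, with 0 UMIs in mt-high and 0 in reference barcodes of the library labelled WT, and 4 and 322 in that labelled IPKO. A 3' count need not report a deletion elsewhere in the gene, but this does not account for 0 UMIs in the library labelled WT. Whether the labels were exchanged was not tested, so every direction between the libraries below is between labels.

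AT2 cells make and store surfactant, the lipid and protein film that keeps alveoli open, and they are rich in mitochondria. Mitochondrial RNA is made and kept inside the organelle, apart from the cytosol. Messenger RNA of nuclear genes lies mostly in the cytosol, while some long noncoding RNAs such as Malat1 and Neat1 stay in the nucleus. A high mt- share is widely used as a sign of a damaged cell or of a droplet that holds little cytosolic RNA.

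The comparison set, called reference barcodes, had an mt- share of at most 10% and at least 5000 UMIs in the same library. It held 6307 and 7522 barcodes. The mt-high barcodes differed from it in their nuclear-encoded RNA and hardly in the number of mt- molecules. Their median mt- count was 809 and 677 UMIs, against 955 and 663 in reference barcodes, so that the reference median was 1.18 and 0.979 times theirs. Their median nuclear-encoded count was 204 and 210 UMIs, with 90% of barcodes between 111 and 662 and between 120 and 589. Reference barcodes had medians of 17455 and 16386 nuclear UMIs, which was 85.6 and 78.0 times as many. The mt- share and these counts are linked by the rule, so the gap in nuclear RNA describes how the barcodes were chosen.

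The median total of an mt-high barcode was 1058.5 and 901 UMIs, and totals ran from 500, the lowest in the deposited files, to 4707 and 3442. The median mt- share was 79.1% and 75.2%, with highest values of 92.7% and 91.8%. A median of 117 and 124 nuclear genes was detected per barcode, against 3375 and 3331 in reference barcodes. That gap followed depth. After thinning every barcode to 100 nuclear UMIs, which left out 35 and 14 mt-high barcodes, the medians were 63 and 64 genes against 61 and 61. Summed over all of them, mt-high barcodes held 476235 and 352574 nuclear UMIs over 11308 and 11168 nuclear genes. These were 0.401% and 0.270% of all nuclear UMIs of a library, while the same barcodes held 17.7% and 14.4% of its mt- UMIs. The sequence of 79 barcodes occurred in both libraries, among them 2 mt-high barcodes labelled WT and 4 labelled IPKO.

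**Figure D1:**
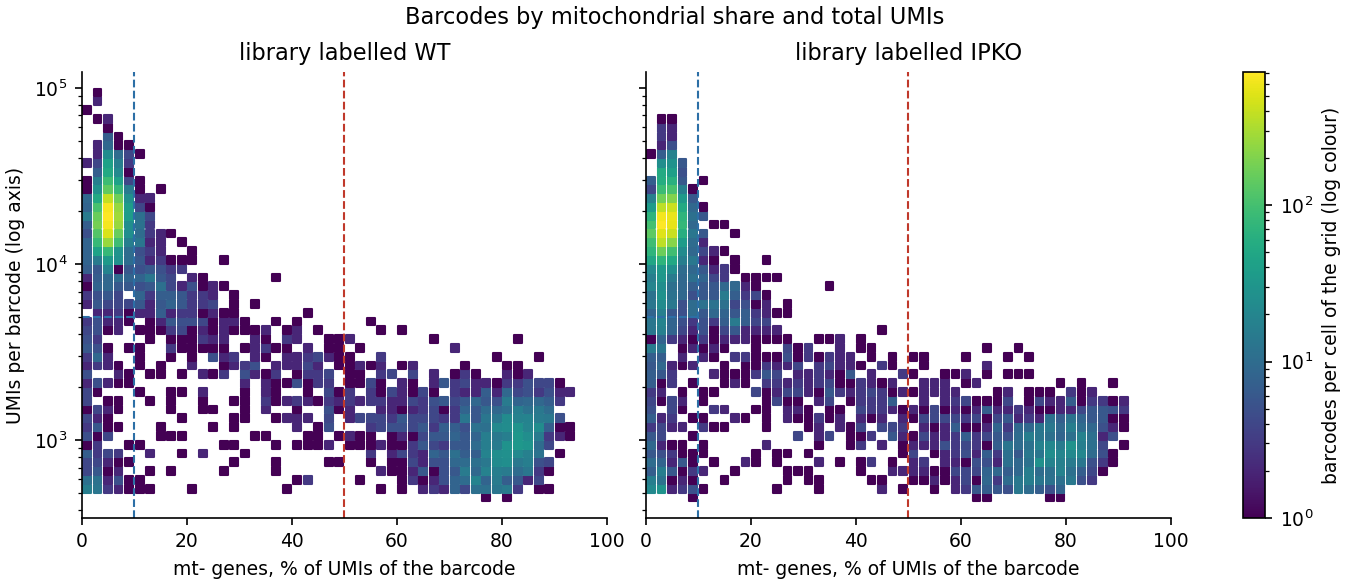
Each cell of the grid shows how many barcodes had a given mt- share (x axis, % of UMIs) and total (y axis, UMIs, log scale) in each library, with colour on a log scale. The dashed lines mark 10% and 50%, and the barcodes above 50% form a cloud around medians of 1058.5 and 901 UMIs, apart from the reference barcodes.

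The mt- transcripts were led by mt-Atp6, subunit a of ATP synthase, and mt-Co3, a subunit of cytochrome c oxidase. In mt-high barcodes mt-Atp6 held 17.6% and 18.5% of mt- UMIs, and mt-Co3 held 16.8% and 17.2%. Together they held 34.5% and 35.7%, against 30.8% and 31.9% in reference barcodes. UMIs are counted at the 3' end of a transcript, so these shares are not scaled by gene length. Where genes overlap, as mt-Atp8 and mt-Atp6 do, how UMIs were divided between them is uncertain. Both genes lie side by side on the heavy strand of the mitochondrial genome and share 1 base. They are shown with the 3' ends that the kit counts, from GRCm38 with GENCODE vM21 transcripts, because their junction and ends tell the leading mt- transcripts apart. Capitals mark a stop codon in the ends of mt-Atp6 and mt-Co1, the start codon of mt-Co3, and the lone T at the end of mt-Co3. That T is an incomplete stop codon, which polyadenylation of the messenger completes in mammals. The last sequence is the overlap of mt-Atp8 and mt-Atp6, with the start codon of mt-Atp6 and the stop codon of mt-Atp8 in capitals.
mt-Atp6 end, chrM:8568-8607, plus strand: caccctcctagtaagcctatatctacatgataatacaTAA
mt-Co3 start, chrM:8607-8646, plus strand: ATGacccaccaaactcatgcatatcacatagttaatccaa
mt-Co3 end, chrM:9351-9390, plus strand: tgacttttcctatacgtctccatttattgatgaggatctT
mt-Co1 end, chrM:6833-6872, plus strand: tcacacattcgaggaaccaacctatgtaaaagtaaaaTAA
mt-Atp8 and mt-Atp6 overlap, chrM:7927-7969, plus strand: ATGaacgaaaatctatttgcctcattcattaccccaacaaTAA

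In reference barcodes the order was different, with mt-Co1, the catalytic subunit of cytochrome c oxidase, in the lead. It held 15.9% and 17.0% of mt- UMIs there and 13.2% and 13.6% in mt-high barcodes, a log2 ratio of shares of −0.28 (interval −0.28 to −0.27) and −0.31 (−0.32 to −0.31). The mt-Atp6 share was higher in mt-high barcodes by 0.18 and 0.19 on the log2 scale, and the mt-Co3 share by 0.14 and 0.13. The middle 50% of mt-high barcodes lay between 16.4% and 18.8% and between 17.0% and 19.9% for mt-Atp6. In reference barcodes they lay between 14.5% and 16.6% and between 14.8% and 17.4%, so these ranges overlapped only at their edges in both libraries. Barcodes of 1 library are not replicates, and no test was made.

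Among the 7 genes of complex I, which takes electrons from NADH, 5 had lower shares in mt-high barcodes of both libraries. The ratios were −0.32 and −0.31 for mt-Nd4, −0.28 and −0.29 for mt-Nd5, −0.20 and −0.18 for mt-Nd4l, −0.16 and −0.16 for mt-Nd1 and −0.09 and −0.19 for mt-Nd3. The mt-Nd2 share was higher by 0.09 and 0.14. The rarest transcript, mt-Nd6, held 0.098% and 0.085% against 0.076% and 0.067%, or 0.38 and 0.34 on the log2 scale. The mt-Nd6 gene lies on the other strand and overlaps the end of mt-Nd5, and reads there cannot be assigned with certainty because the strand setting of the counting is not given. Summed by complex, complex I genes held 27.6% and 25.2% of mt- UMIs against 30.01% and 27.3%. ATP synthase genes held 17.9% and 18.7% against 15.9% and 16.5%. Complex IV genes held 43.1% and 44.7% against 43.3% and 45.7%, as mt-Co3 and mt-Co2 were higher where mt-Co1 was lower.

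The lead of mt-Atp6 and mt-Co3 was not limited to mt-high barcodes. In barcodes above 10 and up to 20% mt- share they came first and second as well, with 32.3% and 34.1% of mt- UMIs together. In barcodes with an mt- share above 20 and up to 50%, 307 and 376 in number, mt-Atp6 and mt-Co3 together held 33.7% and 35.1% of mt- UMIs. In 247 and 444 barcodes with at most 10% mt- share and fewer than 5000 UMIs they held 34.8% and 35.8%. The mt-Co1 share in those shallow barcodes was 12.5% and 14.4%, near that of mt-high barcodes and below that of the reference. The shallow barcodes also held markers of other cells, with endothelial genes at 9351 and 3653 CPM of nuclear UMIs and neutrophil genes at 10632 and 5353. Whether depth, mt- share or cell type goes with the composition of mt- RNA was not tested.

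**Figure D2:**
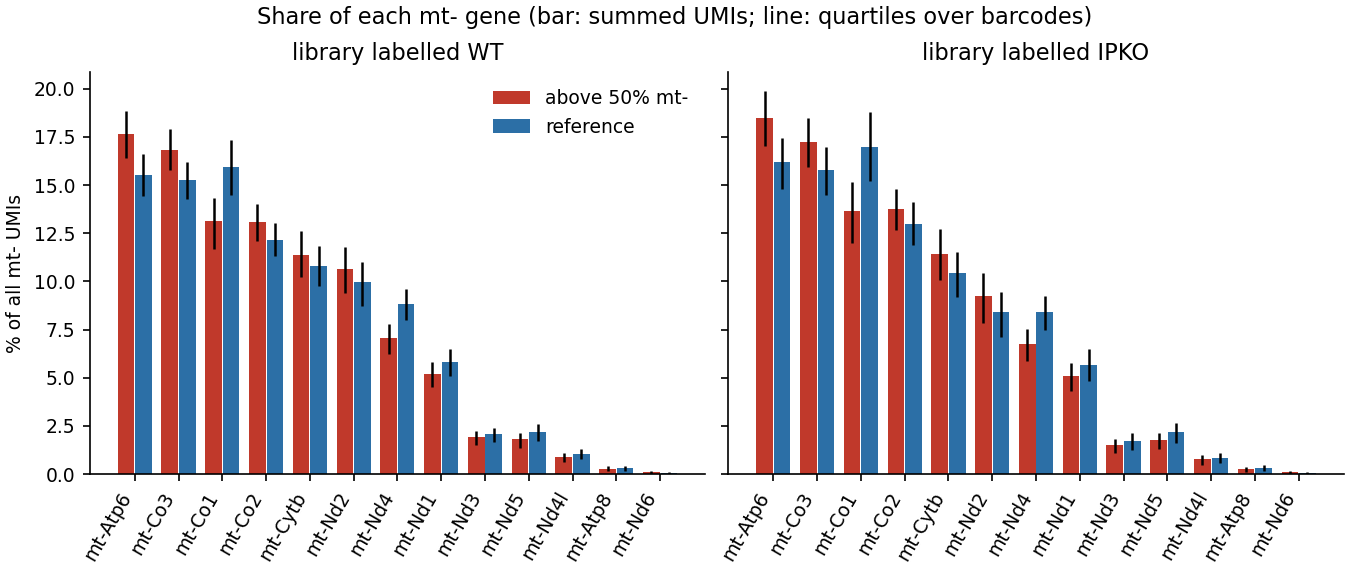
Bars give the share (y axis, % of all mt- UMIs, summed over barcodes) of each mt- gene in barcodes above 50% mt- share and in reference barcodes, in each library. Lines span the middle 50% of barcodes with at least 50 mt- UMIs. mt-Atp6 leads at 17.6% and 18.5% in the barcodes above 50%, while mt-Co1 leads the reference at 15.9% and 17.0%.

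The nuclear RNA differed in kind along the range of mt- share. The median mt- count stayed between 573 and 1352 UMIs in all classes of mt- share, while the median nuclear count went from 16726 and 16125 at up to 5% to 1084 and 817 at 40 to 50%. It went on to 167 and 163.5 at 80 to 90%. Malat1, a long noncoding RNA of nuclear speckles, held 1.86% and 1.71% of nuclear UMIs at up to 5% mt- share. It reached 24.5% at 40 to 50% in the library labelled WT and 21.1% at 30 to 40% in that labelled IPKO. Above the threshold its share became smaller again, with 17.7% and 12.7% at 50 to 60% and 2.46% and 1.46% at 80 to 90%. Sftpc, which encodes surfactant protein C and marks AT2 cells, followed the opposite course in its share. This share was 22.7% and 21.7% at up to 5%, was lowest at 4.66% (40 to 50%) and 5.80% (30 to 40%), and was 17.3% and 17.0% at 80 to 90%. The median Sftpc count made no such return. It was 3845 and 3509 UMIs at up to 5%, 45.5 and 43 at 40 to 50%, and 29 and 28 at 80 to 90%, where the nuclear total was smallest of these classes. The class above 90% held only 19 and 8 barcodes.

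Within mt-high barcodes alone, the Malat1 share of nuclear UMIs went down as the mt- share went up (Spearman rho −0.38 and −0.34 over 1748 and 1349 barcodes). The Sftpc share went up (rho 0.37 and 0.30). The points of such a correlation share a library, and shares of a barcode with few UMIs also depend on its depth. The mt-high barcodes thus differ among themselves, and their summed nuclear RNA joins barcodes rich in Malat1 with barcodes poor in it.

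**Figure D3:**
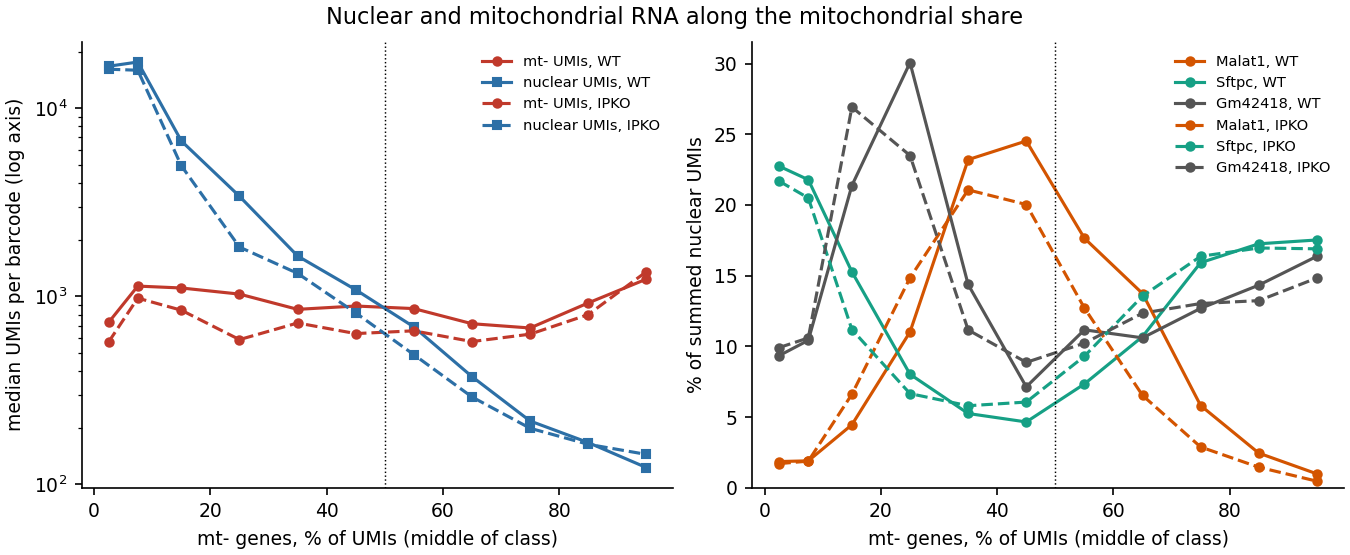
Left, the median number of mt- and of nuclear-encoded UMIs per barcode (y axis, log scale) by class of mt- share (x axis, % of UMIs, middle of the class). Right, the share of summed nuclear UMIs (y axis, %) held by Malat1, Sftpc and Gm42418; the dotted line marks 50%, solid lines the library labelled WT and dashed lines that labelled IPKO. Malat1 peaks below 50% mt- share, at 24.5% in the 40 to 50% class (WT) and 21.1% in the 30 to 40% class (IPKO), and Sftpc is lowest in the same classes at 4.66% and 5.80%.

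Levels of nuclear-encoded genes are given as CPM, the UMIs of a gene per 1000000 nuclear UMIs summed over the barcodes of a set. A ratio is the level in mt-high over that in reference barcodes on the log2 scale. Such a ratio compares proportions, and says nothing of the loss of nuclear RNA as a whole. The median ratio of the genes compared was 0.0069 and 0.08, and on a total that includes mt- genes it was −2.20 and −1.93, over the fewer genes that reach the bound there. Of the genes whose mean level over both sets reached 50 CPM, 333 of 2284 (14.6%) were at least 2-fold higher in mt-high barcodes and 17 (0.744%) at least 2-fold lower in the library labelled WT. In that labelled IPKO 268 of 2297 (11.7%) were higher and 19 (0.827%) lower. Of 2062 genes compared in both libraries, 202 (9.8%) were higher in both, 1 (0.0485%) was lower in both and 0 went in opposite directions. A gene can reach the mean of 50 CPM through either set alone, so the counts of called genes depend in part on this filter. Counting error was wide for low genes, since 50 CPM stood for 23.8 and 17.6 UMIs. The whole interval lay at or above 2-fold for 191 (8.36%) and 112 (4.88%) genes.

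The genes with the most nuclear UMIs were mainly those of AT2 cells, with Malat1 and Gm42418 beside them. Of the 10 highest genes of mt-high barcodes, 10 and 9 were also among the 10 highest of reference barcodes. All 4 surfactant protein genes were present in mt-high barcodes at levels below the reference, and none by 2-fold. Sftpc stood at 137663 and 143244 CPM against 222675 and 215592, a ratio of −0.69 (interval −0.70 to −0.68) and −0.59 (−0.60 to −0.58). Sftpa1, which encodes the collectin surfactant protein A, had 16960 and 17418 CPM against 27047 and 25967, or −0.67 and −0.58. Sftpb encodes the small protein that spreads the lipid film. Its level was 8378 and 8339 CPM against 11010 and 9685, or −0.39 and −0.22. Sftpd, which encodes the collectin surfactant protein D, was lowest against the reference at 2799 and 2428 CPM against 5015 and 4243, or −0.84 and −0.81. Against the shallow low-mt barcodes, which include other cell types, the direction was turned, with a median ratio of 1.90 and 1.09 for the list.

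Other AT2 genes kept a similar proportion. Lyz2, which encodes lysozyme, had ratios of −0.55 and −0.52, and Slc34a2, the phosphate transporter of AT2 cells, −0.50 and −0.36. Cxcl15, a chemokine made in lung epithelium, had −0.42 and −0.22, and Scd1, a fatty acid desaturase, −0.38 and −0.19. Among the 15 measured genes of surfactant lipid and lamellar bodies, 0 and 0 were at least 2-fold higher and 0 and 1 lower, with a median of −0.34 and −0.14. Abca3, the lipid pump of the lamellar body, was at 0.45 and 0.50, and Napsa, a protease that processes surfactant protein B, at −0.63 and −0.56. Of 18 other AT2 identity genes, 0 and 1 were 2-fold higher and 0 lower in both libraries. Nkx2-1, the transcription factor of lung epithelium, had 0.78 and 0.55, and Cd74, the invariant chain of MHC class II, −0.74 and −0.71. The bound used for lists was a mean of at least 5 CPM over both sets, which a gene can reach through either set alone. Over all genes at this bound, 19.7% and 19.7% were higher, 3.36% and 4.44% lower, and the median was 0.27 and 0.26.

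Each mt-high barcode held surfactant RNA, in small and even amounts. Sftpc was counted in 1748 of 1748 and 1349 of 1349 of them, with a median of 33 and 33 UMIs, and 90% of barcodes lay between 17 and 71 and between 18 and 70. Reference barcodes had medians of 3886 and 3531.5. Free RNA of lysed AT2 cells can enter any droplet, and barcodes of cells that should not make surfactant give a gauge of it. In 94 and 205 barcodes with at most 10% mt- share and at least 10 UMIs of endothelial or lymphocyte markers, the median was 19 and 22 Sftpc UMIs, beside medians of 3731 and 4875 nuclear UMIs. The mt-high medians lay above this gauge and far below the reference. Some gauge barcodes held as much as a reference barcode, since 5% of them had over 4125 and 4072 Sftpc UMIs, so sums over the gauge rest on these.

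The proportions of the surfactant genes to each other were close for Sftpa1 and less so for Sftpb and Sftpd. For every 100 Sftpc UMIs, mt-high barcodes held 12.3 and 12.2 of Sftpa1, reference barcodes 12.1 and 12.04, and the gauge barcodes 10.8 and 10.9. For Sftpb the values were 6.09 and 5.82 against 4.94 and 4.49, and 5.20 and 4.60 in the gauge barcodes. Sftpd went the other way, with 2.03 and 1.69 against 2.25 and 1.97. In barcodes above 20 and up to 50% mt- share Sftpb reached 10.9 and 10.7. For Lyz2, the lysozyme gene, they were 15.7 and 17.4 against 14.2 and 16.5, and 13.2 and 16.7. Malat1 was not in such proportion, with 61.5 and 38.8 UMIs per 100 of Sftpc against 8.37 and 8.004, and 24.9 and 20.6 in the gauge barcodes. Droplets without cells were not used here, and the part of free RNA in the nuclear counts of mt-high barcodes was not tested.

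Nuclear long noncoding RNA stood out on the other side. All 5 measured genes of this list had positive ratios in both libraries, 5 and 4 of them by at least 2-fold. The median was 2.18 and 2.11. Over all genes at the bound used for lists, 19.7% and 19.7% were at least 2-fold higher. Malat1 had 84639 and 55529 CPM in mt-high barcodes against 18641 and 17256, a ratio of 2.18 (interval 2.17 to 2.20) and 1.69 (1.67 to 1.71). A minority of barcodes carried this summed ratio. The median share of Malat1 in a barcode was 1.36% and 1.18% of nuclear UMIs in mt-high barcodes, below the 1.65% and 1.58% of reference barcodes. Among the 1260 and 1061 mt-high barcodes with Malat1 below 5%, a bound chosen after seeing the data, the ratio was −0.67 and −0.56. The bound selects for low Malat1 and was not put on the reference, so it lowers this ratio, which is no result. Neat1, the scaffold of paraspeckles, had 2350 and 1560 CPM against 474 and 360, or 2.31 (2.22 to 2.40) and 2.12 (1.99 to 2.24). Snhg11 had 430 and 440 CPM against 84.96 and 102, or 2.34 and 2.11. Kcnq1ot1, an antisense RNA that silences an imprinted domain, had 223 and 162 CPM against 89.1 and 85.9, or 1.32 and 0.91. The ratios of Malat1 and Kcnq1ot1 also depended on the mt- share. With members above 80% mt- share only, the Malat1 ratio in the library labelled IPKO was −0.26, and Kcnq1ot1 was −1.36 in that labelled WT. On a total with mt- genes Malat1 was −0.17 in the library labelled IPKO.

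Malat1 ends in a triple helix and not in a poly(A) tail, while the kit primes on A-rich sequence, so the longest A run of the transcript is shown. The gene lies at chr19:5795690-5802672 on the minus strand of GRCm38. The run of 12 A, in capitals, lies 298 bases before the end of the 6983-base annotated transcript. That end need not be the end of mature Malat1, and whether the run lies apart from the triple helix was not tested.
Malat1 A run, chr19:5795958-5796029, minus strand: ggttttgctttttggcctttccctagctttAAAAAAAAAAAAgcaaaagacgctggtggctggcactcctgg
A run of 12 A on the transcript strand was found in 497 of 2550 GENCODE transcripts of at least 6000 and under 8000 bases (19.5%). Where in the gene the Malat1 UMIs were primed cannot be read from a count per gene and was not tested.

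RNA derived from the ribosomal RNA repeat was the other abundant kind. Gm42418, which overlaps such a repeat, was the second gene by level in mt-high barcodes, at 125184 and 123319 CPM against 99700 and 100548, or 0.33 and 0.29; on a total with mt- genes it was −1.67 and −1.56. AY036118 had 2616 and 2575 CPM against 810 and 714, or 1.69 and 1.85. Its 923 bases lie wholly inside Gm42418 on the opposite strand (chr17:39847113-39848035 in chr17:39846958-39848788), so how UMIs were divided between them is uncertain. Gm26917 lies next to them at chr17:39843013-39846341 without overlap. It had 1021 and 520 UMIs in mt-high barcodes, which made 2144 and 1475 CPM against 23.5 and 31.8. Its ratio of 6.51 (6.40 to 6.61) and 5.54 was the highest in each library among the genes that reached the mean of 50 CPM. Gm26917 reached that mean only through mt-high barcodes.

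Genes for splicing and nuclear speckles were higher as a list. Of 24 measured genes, 18 and 13 were at least 2-fold higher and 0 and 0 lower. Over all genes at the bound used for lists, 19.7% and 19.7% were higher and 3.36% and 4.44% lower. The median of the list was 1.35 and 1.16, and on a total with mt- genes it became −0.65 and −0.69. The speckle scaffold Srrm2 had 1881 and 1489 CPM against 287 and 325, or 2.71 and 2.19, and Luc7l3, a U1-associated factor, had 2.51 and 2.17. At the other end, the RNA-binding genes Hnrnpu (0.18 and 0.53) and Srsf3 (0.08 and 0.38) did not reach 2-fold. In the mt-high barcodes with Malat1 below 5%, the summed list had 6085 and 6412 CPM against 3779 and 4076 in the reference. Malat1 was left out of these totals. Nuclear genes of other kinds were among the 15 highest named genes in both libraries, which were picked by their ratios. They included Akap8l, a nuclear anchoring protein (3.33 and 2.37), Zfc3h1, a partner of the nuclear exosome (2.98 and 2.33), and Ccnl2, a speckle cyclin (2.81 and 2.40). Rbm25 (2.48 and 2.33) and Srek1 (2.38 and 2.51) are splicing regulators, Chd7 is a chromatin remodeller (2.63 and 2.43), and Ankrd11 is a chromatin regulator (2.45 and 2.66). Tle2, a corepressor, had 2.87 and 2.44.

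The leading named genes besides these were Fam193b (3.94 and 3.53), with 206 and 199 CPM against 13.4 and 17.2, and Snhg9, a noncoding host of small nucleolar RNA (3.76 and 3.83). Hopx, a homeodomain protein used as a marker of alveolar type 1 (AT1) cells, had 58 and 81 UMIs, or 122 and 230 CPM against 15.8 and 26.2, a ratio of 2.95 and 3.13. Its ratio against shallow low-mt barcodes was −1.57 in the library labelled WT and 0.52 in that labelled IPKO. Fam193b and Hopx reached the mean of 50 CPM only through mt-high barcodes. The AT1 list followed Hopx in part of its genes and not in its summed level. Of its measured genes, 4 of 10 and 9 of 14 were at least 2-fold higher and 0 lower. Genes low in the reference can reach the bound used for lists through mt-high barcodes alone, which favours higher ratios in these counts. Over all genes at the bound used for lists, 19.7% and 19.7% were higher. The median of the list was 0.31 and 1.82. Its summed level was 2381 and 3265 CPM against 2723 and 2867, or −0.19 and 0.19. Ager, the receptor RAGE, had −0.41 and −0.07, and Cldn18, a lung claudin, −0.79 and −0.36. Fam71a had 2.96 and 2.80, Erdr1 2.66 and 3.31, Leng8 2.49 and 2.31, and Bmp1, a proteinase that cleaves procollagen, 2.58 and 2.77. No barcode held over 7.69% of the UMIs of any of these 15 genes, so none rested on 1 barcode.

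The 15 lowest named genes showed smaller differences. Sdc4, which encodes syndecan-4, had 283 and 340 CPM against 602 and 616, or −1.09 (−1.34 to −0.84) and −0.86 (−1.13 to −0.60). Egln1, a prolyl hydroxylase that marks HIF for degradation, had −1.04 and −1.39 on 19 and 11 UMIs. Klf9, a transcription factor, had −1.05 and −0.98, and Serpinb6b, a protease inhibitor, −1.01 and −0.95. Further genes that were at least 2-fold lower in the library labelled WT only were Creg1 (−1.18 and −0.74) and Atxn7l3b (−1.15 and −0.74). Set, Idi1, Vimp, Sec62, Hsd17b10, Cst8, Sftpd, Fau and Rpl9 lay between −0.72 and −0.99 in both libraries. Among them Idi1 serves isoprenoid synthesis, Sec62 serves protein entry into the endoplasmic reticulum, and Fau and Rpl9 encode ribosomal proteins. Against the shallow low-mt barcodes the ratio of Sdc4 was 0.57 in the library labelled WT.

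Messengers of the translation apparatus kept together slightly below the reference. Over all genes at the bound used for lists, 19.7% and 19.7% were higher and 3.36% and 4.44% lower, with medians of 0.27 and 0.26. Of 80 measured ribosomal protein genes, 0 were 2-fold higher or lower in either library, with medians of −0.55 and −0.48. Of 15 translation factor and related genes, 0 were called in either direction (medians −0.47 and −0.40). Nuclear-encoded subunits of the respiratory chain are the partners of the mt- genes in complexes I to V. Of 42 such genes 0 were called, with medians of −0.30 and −0.19 and values from −0.76 to 0.22 and from −0.74 to 0.15. These ratios are relative to nuclear UMIs and cannot be set against the mt- levels. Tmsb4x, an actin-binding thymosin with a short messenger, had −0.29 and −0.19.

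Some immediate early genes, whose short-lived messengers are induced within minutes of stress or dissociation, were higher. Of 22 measured genes, 7 and 7 were at least 2-fold higher and 0 lower, beside 19.7% and 19.7% higher over all genes at the same bound, with medians of 0.65 and 0.75; these medians were −1.32 and −1.10 on a total with mt- genes and −0.93 and −0.32 against shallow low-mt barcodes. Nr4a1, an orphan nuclear receptor, had 143 and 250 CPM against 26.2 and 54.9, or 2.45 and 2.19. Fosb, a subunit of AP-1, had 1178 and 2065 CPM against 324 and 698, or 1.86 and 1.56. Jun, its partner in AP-1, had 2442 and 2598 CPM against 815 and 1497, or 1.58 and 0.80. In the mt-high barcodes with Malat1 below 5%, Fosb had 0.69 and 0.56 and Jun 0.51 and 0.18. The summed list had 5355 and 8435 CPM there, against 4152 and 6849 in the reference. Malat1 was left out of these totals. Btg2 (0.02 and 0.02) and Zfp36l1 (−0.33 and −0.19) stood at the low end of the list. Of 16 heat shock genes, 2 and 4 were higher and 0 lower, which lies around the same 19.7% over all genes. The inducible Hsp70 genes Hspa1b (2.08 and 1.38) and Hspa1a (1.67 and 1.201) were among them.

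**Figure D4:**
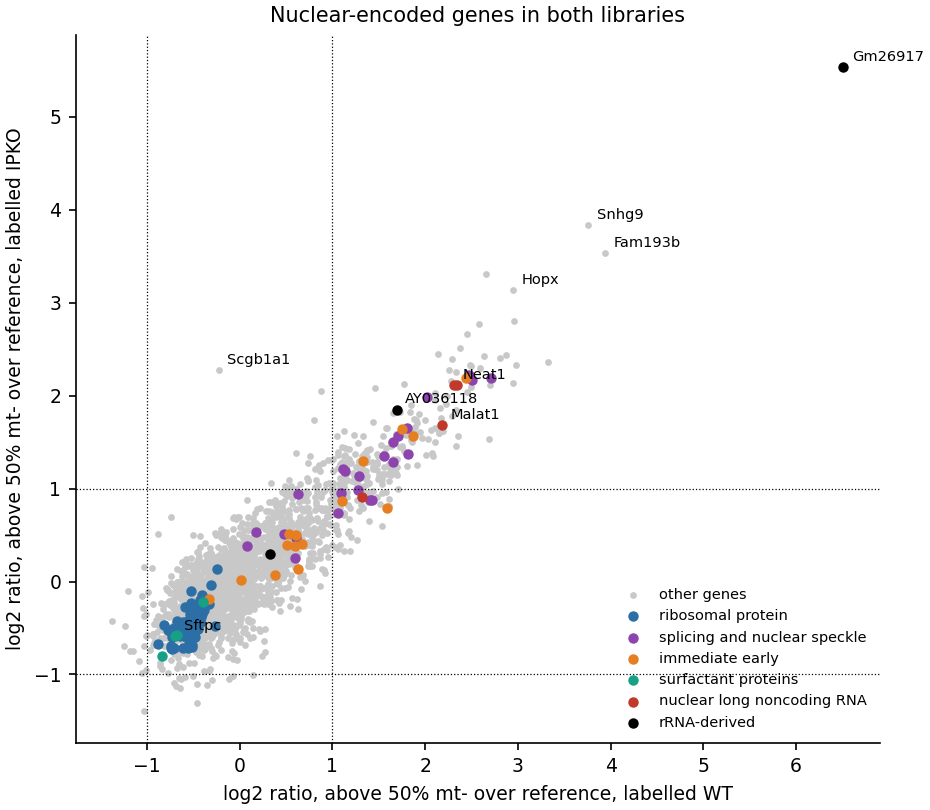
Each point is a nuclear-encoded gene with a mean of at least 50 CPM in both libraries, placed by its log2 ratio of mt-high over reference barcodes in the library labelled WT (x axis) and in that labelled IPKO (y axis), both relative to nuclear UMIs. Dotted lines mark 2-fold; splicing, nuclear noncoding and rRNA-derived genes lie at the upper right, and surfactant protein genes between −0.84 and −0.22.

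Haemoglobin RNA was sparse in mt-high barcodes. In the library labelled WT there were 2 UMIs in 2 of 1748 barcodes (0.114%, interval 0.014 to 0.413), and no fold is given. In the library labelled IPKO there were 79 UMIs in 75 of 1349 barcodes (5.56%, 4.398 to 6.92), of which 36 were of Hbb-bs, 16 of Hbb-bt, 11 of Hba-a1 and 16 of Hba-a2. No mt-high barcode held more than 2. Reference barcodes labelled IPKO held at least 1 haemoglobin UMI in 688 of 7522 (9.15%), at far greater depth. They held 135915 UMIs, but 22 barcodes with 3 or more UMIs each held all but 702 of these. Per barcode there were 0.0586 haemoglobin UMIs (0.0464 to 0.0730) in mt-high and 0.0936 (0.0868 to 0.101) in reference barcodes without those 22. In CPM the summed list was lower than in all reference barcodes (−2.25), and it stood at 224 CPM against 5.54 CPM once the 22 were left out. Barcodes above 20 and up to 50% mt- share held 0.0559 per barcode (0.0346 to 0.0854), an interval that holds the mt-high value.

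Few mt-high barcodes held 3 or more UMIs of markers of cells other than epithelium. Of 1748 and 1349 mt-high barcodes, 5 (0.286%) and 9 (0.667%) held at least 3 UMIs of any of 7 lists, which covered endothelial, mesenchymal, T and NK, B, macrophage and monocyte, neutrophil and haemoglobin genes. The shares in the far deeper reference barcodes were 21.7% and 24.5%. Such shares depend on depth, and none at equal depth is given here. Endothelial genes were at 103 and 173 CPM against 100 and 113, with 5 and 2 of 12 genes at 0. Macrophage and monocyte genes were at 63.0 and 34.0 CPM against 27.7 and 41.4, with 7 and 6 of 12 at 0. Mesenchymal genes were at 23.1 and 45.4 CPM against 9.94 and 19.6, on 11 and 16 UMIs. T and NK genes were at 12.6 and 96.4 against 5.29 and 48.7, on 6 and 34 UMIs. B cell genes were at 18.9 and 31.2 against 24.1 and 28.3. Neutrophil genes were at 12.6 and 201.4 CPM against 1.47 and 16.5, and 1 barcode labelled IPKO held 46 of its 71 UMIs. Platelet genes had 2 and 0 UMIs. Genes of AT1 and club cells were found in more barcodes. At least 3 UMIs of the AT1 list were held by 5.21% and 8.01% of mt-high barcodes. At least 1 UMI of it was held by 41.9% and 48.9%, beside 2.40% and 3.19% for the endothelial list. At least 3 UMIs of the club and secretory list were held by 28.2% and 23.8%, and its level was 7593 and 7720 CPM against 8170 and 4559. Ciliated genes were at 143 and 320.5 CPM against 132 and 211, with at least 3 UMIs in 0 and 2 barcodes. In reference barcodes AT1 and club genes were counted in at least 99.3% of barcodes.

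The club cell gene Scgb1a1, which encodes a secreted uteroglobin, was the tenth gene by level in mt-high barcodes of the library labelled IPKO. It had 3009 and 4010 CPM against 3521 and 827, a ratio of −0.23 in the library labelled WT and 2.28 in that labelled IPKO. The value in the library labelled WT was not stable: it was 0.93 without barcode sequences that the libraries share and 1.02 with equal weight per barcode. At least 1 UMI was found in 41.2% and 42.7% of mt-high barcodes, beside 36.2% and 48.8% of the gauge barcodes at medians of 204 and 210 against 3731 and 4875 nuclear UMIs. Thinned to 100 nuclear UMIs, the shares were 22.5% and 24.1% in mt-high, 10.1% and 2.83% in reference and 3.19% and 1.95% in gauge barcodes. Against the shallow low-mt barcodes the ratio was 0.56 in the library labelled WT and −1.197 in the library labelled IPKO.

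The Malat1 share divided the mt-high barcodes. The bound of 5% of nuclear UMIs was chosen after seeing the data, and 74 and 63 barcodes lay near it, at 4 to 6%. At or above it were 488 (27.9%) and 288 (21.3%) barcodes, called Malat1-rich, while 716 and 610 barcodes had under 1%. Malat1-rich barcodes had a median of 383.5 and 384 nuclear UMIs, and the others 175 and 189. Their median mt- counts were 974 and 779.5 against 755 and 656, with mt- shares of 70.2% and 65.9% against 80.9% and 76.9%. Sftpc hardly differed, at 37 and 35.5 UMIs against 32 and 32, whereas Malat1 stood at 53 and 41 against 2 and 2. The gap in Malat1 is fixed by the bound and is no result.

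With Malat1 itself left out of the totals, the rest of the nuclear RNA also differed between these kinds of barcodes. The Malat1-rich barcodes had 1001 of 2721 genes (36.8%) and 1006 of 2742 (36.7%) at least 2-fold above the reference, and 175 (6.43%) and 190 (6.93%) below it. The Malat1-poor ones had 95 of 2147 (4.42%) and 114 of 2184 (5.22%) above it, and 34 (1.58%) and 33 (1.51%) below it. Across genes the CPM of Malat1-rich barcodes correlated with that of the reference at a Spearman rho of 0.41 and 0.41, and that of the poor ones at 0.79 and 0.79. Genes are not independent, and the sums differ in depth. Without Malat1 they held 188104 and 109519 nuclear UMIs in Malat1-rich and 247823 and 223477 in Malat1-poor barcodes. A gene can also reach the bound on the mean level through either set alone, here and between both kinds below. The counts and rho thus depend in part on the filter and the depth, and only describe the libraries.

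Between the Malat1-rich and the Malat1-poor barcodes, 942 of 2811 (33.5%) and 981 of 2851 (34.4%) genes were at least 2-fold higher and 171 (6.08%) and 214 (7.51%) lower. At the bound used for lists 31.8% and 39.8% of all genes were higher and 9.52% and 7.66% lower. Of 24 splicing and speckle genes, 14 and 16 were higher and 0 lower. Genes named here were chosen after their values were seen. Son, a speckle scaffold, had 2212 and 1854 CPM in Malat1-rich against 270 and 255 in poor barcodes, or 3.03 and 2.86. Srrm2 had 2.56 and 2.27, Neat1 1.86 and 2.03, and Kcnq1ot1 3.66 and 4.12. Jun (1.97 and 1.49) and Fosb (2.10 and 2.11) were higher too. Against the reference, Malat1-poor barcodes had −0.28 and −0.27 for Son and −1.17 and −1.70 for Kcnq1ot1. Jun had 0.51 and 0.18 there, and Fosb 0.69 and 0.56. Srrm2 (1.18 and 1.08) and Neat1 (1.32 and 1.16) stayed at least 2-fold higher. Of 80 ribosomal protein genes, 8 and 9 were 2-fold lower, near the share over all genes, and 0 were higher, with medians of −0.76 and −0.74. Sftpc had −0.77 and −0.75, and Scgb1a1 −1.25 and −1.08.

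**Figure D5:**
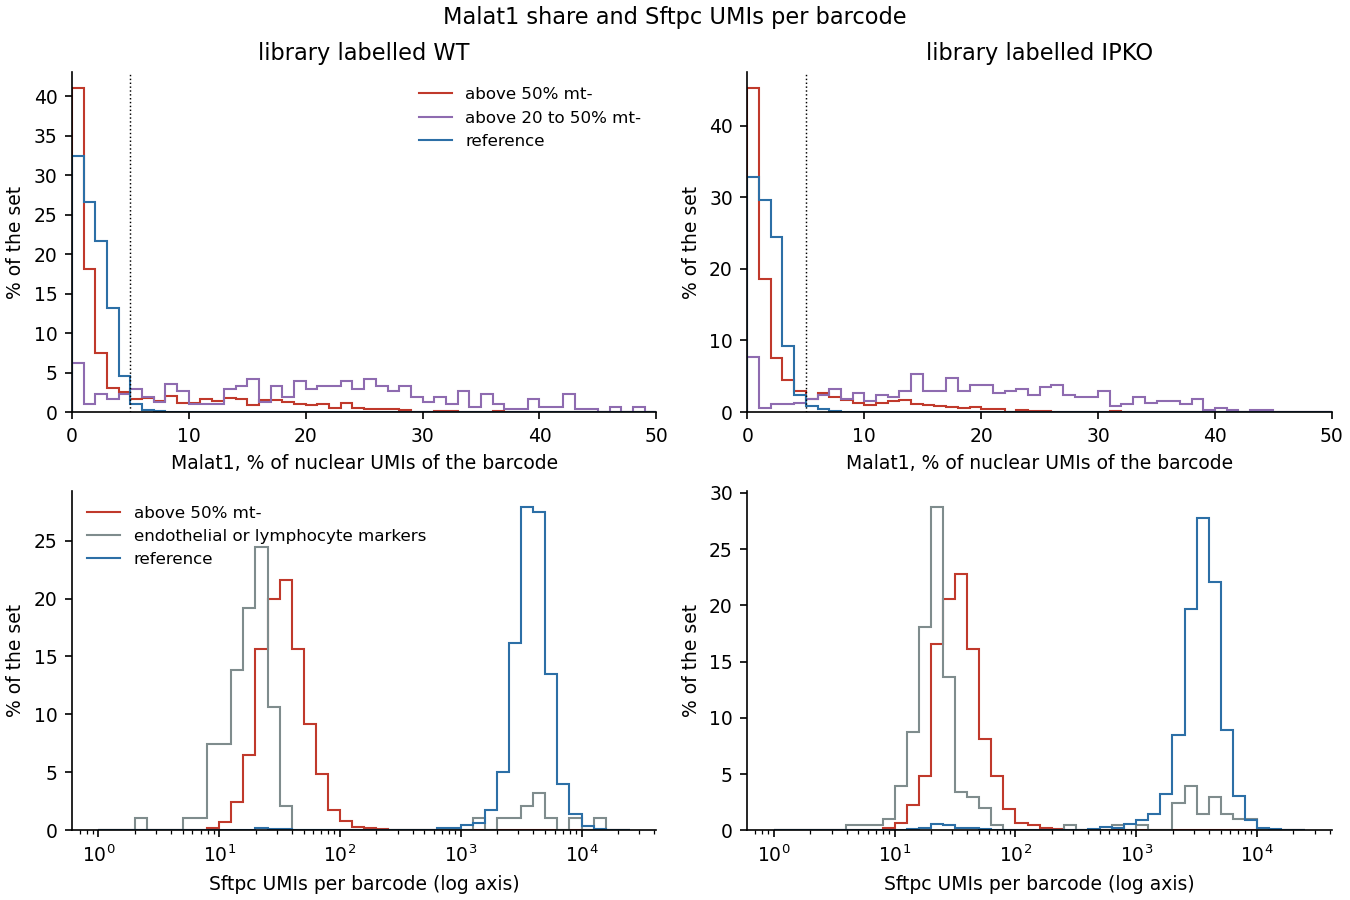
Top, the share of barcodes (y axis, % of the set) by the part of nuclear UMIs held by Malat1 (x axis, %) in mt-high barcodes, barcodes above 20 to 50% and reference barcodes, with the 5% bound dotted. Bottom, the same by Sftpc UMIs per barcode (x axis, log scale) in mt-high, endothelial or lymphocyte marker and reference barcodes. mt-high barcodes hold a median of 33 Sftpc UMIs in both libraries, beside 19 and 22 in the marker barcodes and 3886 and 3531.5 in the reference.

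The libraries were also set against each other within mt-high barcodes, where each genotype has 1 library and genotype and library cannot be told apart. At least 2-fold higher in the library labelled IPKO were 53 of 2483 genes (2.13%), and 44 (1.77%) were lower. In reference barcodes these were 14 (0.679%) and 9 (0.436%) of 2063. The mt-high sums rest on 476235 and 352574 nuclear UMIs and the reference sums on 114557190 and 127096101. Counting error is thus wider in mt-high barcodes, and whether these shares differ beyond it was not tested. Surfactant RNA was alike, with a Sftpc ratio of IPKO over WT of 0.06 in mt-high and −0.05 in reference barcodes. Malat1 was lower in mt-high barcodes labelled IPKO (−0.61) and near the other library in reference barcodes (−0.11).

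Several of the genes that differed most in mt-high barcodes had a ratio of like sign and size in reference barcodes of the same libraries. Hspa1a had 269 CPM in the library labelled WT and 1336 in that labelled IPKO, a ratio of 2.31 (2.03 to 2.61), beside 2.78 in reference barcodes. Hspa1b had 1.97 beside 2.66. Ifi27l2a, an interferon-inducible gene, had 4 and 52 UMIs, or 4.13 beside 4.34. Chil1, a chitinase-like protein of AT2 cells, had 1999 and 468 CPM, or −2.09 beside −2.33. Nr1d1, a repressor of the circadian clock, had 103 and 5 UMIs, or −3.93 (−5.58 to −2.66) beside −4.43, and Mfsd2a, a lipid transporter, −2.10 beside −1.52. S100a9, a calcium-binding protein of neutrophils, had 2 and 44 UMIs, or 4.89 beside 4.98, and 72.7% of its UMIs in the library labelled IPKO came from 1 barcode. Hbb-bs had 1 and 36 UMIs, and haemoglobin genes were also higher in reference barcodes labelled IPKO, at 1069 CPM, or 5.54 without the 22 barcodes, against 0.17 in those labelled WT.

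Other genes had a ratio of another sign or a smaller one in reference barcodes. Scgb3a2, a secretoglobin of club cells, had 17 and 62 UMIs, or 2.30 (1.51 to 3.17) beside −1.39 in reference barcodes, and Scgb1a1 had 0.41 beside −2.09. Tmem123 (12 and 34 UMIs) had 1.94 beside 0.02, and Cebpb, a transcription factor, 2.05 beside 0.71. Lower in mt-high barcodes labelled IPKO were PISD (−2.55 beside −1.39) and Gpatch4 (−2.43 beside −0.85), and Abcc5, Limk2 and Ankrd13a lay between −1.53 and −1.41. None of these differences has a replicate behind it.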

How the data were processed

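The authors deposited raw UMI counts per gene and barcode, 1 matrix per library, made with Cell Ranger 4.0.0 on GRCm38 (mm10) per the submitters' processing notes. The sources used here do not give the annotation release. The libraries held 127287281 (WT) and 137471506 (IPKO) UMIs over 27998 genes, and the lowest total of a barcode was 500. Groups follow the genotype label. Counts were summed over the barcodes of each set, and ratios of CPM of nuclear UMIs have exact intervals from the binomial split of the counts, levels exact Poisson and shares Clopper-Pearson intervals. A level of 0 was set at a floor of 3 counts over the set. With 1 library per group no test was made, and a gene counts as higher or lower past a log2 ratio of 1. No doublet caller was run and no barcode was filtered.

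Positions and sequences are from GENCODE vM21. Named genes were the 13 mt- genes, the members of the surfactant, haemoglobin and rRNA-derived lists, the 10 highest levels per library, the 15 highest and lowest ratios of 1 sign in both libraries (8 and 8 between libraries) without Gm and Rik models, and up to 8 members of other lists. Members, the 36 gene lists and the rules were chosen with earlier results of these data known. Alternatives (20 chosen at the outset, 3 added after seeing the data) varied thresholds, reference, scaling and filters. The ratio step was tested on simulated data. Python 3.11.15, numpy 2.4.6, scipy 1.17.1, pandas 2.3.3 and matplotlib 3.10.9 were used.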

Additional observations from a re-analysis of the deposited data

How the results depend on the processing

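Of the values of single genes, lists and mt- shares recomputed under the 20 alternatives chosen at the outset, 1599 stayed within the spread set for them, 727 moved and 19 changed sign; under the 3 alternatives chosen after seeing the data these numbers were 243, 265 and 3. No paired analysis was possible because each genotype has 1 library. In each pair the library labelled WT comes first, and counts are genes at least 2-fold higher or lower. The cause of a shift was not tested except where the set of genes or barcodes itself changed. Genes compared between mt-high and comparison barcodes numbered 2118 to 2504 in a library unless another number is given.

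With members above 40% mt- share, 27 genes were lower in the library labelled WT, 404 higher in that labelled IPKO, and 28 lower in IPKO over WT; above 60% the last count was 67. Above 80%, where 793 and 376 barcodes were left, 187 genes were higher in the library labelled WT, 49 and 111 lower, and 296 higher and 195 lower in IPKO over WT. Kcnq1ot1 was then at −1.36 (WT) and Malat1 at −0.26 (IPKO), and mt-Atp6 and mt-Co3 together held 35.97% (IPKO). With members of at least 1000 UMIs, 43 and 50 genes were lower, 447 were higher for the IPKO library alone, and 95 were higher and 70 lower in IPKO over WT.

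Against shallow low-mt barcodes 798 and 461 of 2979 and 2672 genes were lower. Hopx was at −1.57, Sdc4 at 0.57, Jun at −0.21 and Hspa1a at −0.12 in the library labelled WT, and Scgb1a1 at −1.197 in that labelled IPKO. On a total with mt- genes 1 and 1 of 1167 and 1232 genes were higher and 1055 and 1107 lower. In IPKO over WT 13 were higher and 4 lower. There Kcnq1ot1 (−0.68), Jun (−0.41), AY036118 (−0.31 and −0.0050), Fosb (−0.13 and −0.29), Hspa1a (−0.33 and −0.66), Hspa1b (−0.48, IPKO), Malat1 (−0.17, IPKO) and the splicing list (−0.65 and −0.69) changed sign. Without surfactant genes and Lyz2 in the total, 92 and 67 of 3011 and 3073 genes were lower, and 69 genes in IPKO over WT. With equal weight per barcode 207 genes were higher in the library labelled WT.

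From a mean of 20 CPM, 832 and 767 of 5062 and 5141 genes were higher, 67 and 87 lower, and 260 higher and 230 lower in IPKO over WT. From 200 CPM, over 423 and 448 genes against the reference, these were 53 and 38, 3 and 1, and 6 and 4. With no filter, over 17711 and 18088 genes against the reference, they were 9290 and 9763, 457 and 486, and 2216 and 1681. Thinning to 50 nuclear UMIs gave medians of 34 and 35 genes and thinning to 200 gave 117 and 120. The median over barcodes of the joint mt-Atp6 and mt-Co3 share was 35.82% (IPKO).

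Members with Malat1 below 5% had 94 and 116 genes higher, 31 and 30 lower, Malat1 at −0.67 and −0.56, Kcnq1ot1 at −1.16 (WT), and 88 higher and 73 lower in IPKO over WT. The bound itself lowers the Malat1 values there. Members with Malat1 of at least 5% had 713 and 790 higher, 330 and 292 lower, 170 higher and 117 lower in IPKO over WT, and a joint mt-Atp6 and mt-Co3 share of 34.39% (WT). Without Malat1 and rRNA-derived genes in the total, 11 of 2778 genes were lower in the library labelled WT and 407 of 2745 higher in that labelled IPKO. In IPKO over WT 86 genes were lower.

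Depth limits the values of low genes: 50 CPM stood for 23.8 and 17.6 UMIs. Counts of called genes grew as the bound on low values was relaxed, and so did the number of genes compared. Of all calls, 95.1% and 93.4% were higher; this share was 0.0947% and 0.0903% on a total with mt- genes, 75.9% and 79.7% without surfactant genes and Lyz2, and 31.0% and 41.2% against shallow low-mt barcodes.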
